A study of Schizosaccharomyces pombe with 40 samples.

Results

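The response of snR107kloopmut cells to nitrogen starvation was measured by poly(A)+ RNA-seq in the fission yeast *Schizosaccharomyces pombe*. The comparison used 4 of the 40 libraries of the series, chosen by their strain and stage labels: 2 libraries of nitrogen-starved cells (-N) and 2 libraries of vegetative cells (V). All 4 came from haploid h- cells with the genotype leu1-32, pat1-L95G::kanR, snR107kloopmut. The -N cells were held overnight (15 to 16 h) at 30 °C in EMM-N, a minimal medium without a nitrogen source. The V cells were growing in EMM, a minimal medium with nitrogen that was supplemented with leucine and uracil. In snR107kloopmut, a short motif between the D' and C' boxes of snR107, a box C/D snoRNA processed out of the *mamRNA* intron, is replaced by its reverse complement. The nearest comparison in the series was the same starvation step in wt cells (2 -N and 2 V libraries), which carry leu1-32 and pat1-L95G::kanR but an intact snR107. The pat1-L95G allele makes the Pat1 kinase sensitive to the ATP analogue 3-MB-PP1, so that both strains lack an unmodified *pat1*. The -N samples were collected before 3-MB-PP1 (25 µM) was added, and cells sampled at 8 hourly stages after its addition are used here only to place the -N values. The 2 replicates of a stage were separate cultures of 1 strain per genotype, the labels do not say whether V and -N libraries of the same number came from 1 culture, and whether the starvation medium held leucine, which these auxotrophs need, is not given in the sources used here.

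In fission yeast, loss of a nitrogen source stops growth, arrests cells in G1 and opens the way to mating and meiosis. The TOR and cAMP-dependent kinase pathways, active in rich medium, are turned down, and the HMG-box transcription factor Ste11 then switches on mating genes and *mei2*, whose RNA-binding protein drives entry into meiosis once the Pat1 kinase no longer phosphorylates it. Starved cells also take up alternative nitrogen sources, recycle proteins and organelles by autophagy, and reduce the making of ribosomes. Mating type decides which pheromone genes are used: h- cells make M-factor and its secretion and maturation proteins, and h+ cells make P-factor and the receptor for M-factor.

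The 4 libraries held 25768072 to 29879310 counts over 12684 annotated features, so that 3 counts corresponded to 0.1004 to 0.1164 CPM (counts scaled to the total of each library). The defining M-type genes (7 of 7: *mfm1*, *mfm2*, *mfm3*, *mam1*, *mam2*, *mam3*, *sxa2*) were present in every library and together reached 50307 and 81537 RPKM in -N cells, against 2390 and 3344 RPKM in V cells, where RPKM is CPM per kilobase of gene after TMM scaling. The 4 P-type markers summed to 176 and 170.4 RPKM in -N cells and 202 and 170.0 RPKM in V cells. Of these, 0 of 4 passed the test, which 56.1% of all features passed. Of 7 late-meiosis and spore markers, 3 were higher and 1 lower in -N cells, beside 34% and 30.9% of all protein-coding genes. Their summed level was 101 and 113 RPKM in -N cells against 94.8 and 89.8 RPKM in V cells. The M-type and P-type values go with the h- label. The late markers, called in both directions, do not settle whether meiosis had begun. The mutation replaces bases inside the *mamRNA* intron, so counts over that locus do not check the strain label.

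Most annotated features changed on starvation. Of 12019 features tested with edgeR's quasi-likelihood test, 6748 (56.1%) passed a Benjamini-Hochberg adjusted p of 0.05, of which 3488 (29%) were higher and 3260 (27.1%) lower in -N cells. Features more than 2-fold higher made up 12.2% of those tested and features more than 2-fold lower 11.3%. Among 5088 protein-coding genes, 1729 (34%) rose and 1572 (30.9%) fell. Changes of over 4-fold were found for 116 genes that rose and 67 that fell, and changes of over 16-fold for 20 that rose and 5 that fell. The levels of the 4 libraries did not overlap between -N and V for 77.8% of features, called or not. The balance of rises and falls depends on the scaling: with libraries scaled by total counts alone, 76.7% of 7250 calls were higher in -N cells, against 51.7% under TMM. The median difference of all features was then 0.44 on the log2 scale, against 0.05 under TMM. Levels are relative to the poly(A)+ RNA of each library, and fewer cells with an RNA and less of it per cell cannot be told apart.

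The most strongly induced protein-coding genes were a pair of divergent neighbours on the right end of chromosome I that code for handling of urea and amides. *SPAC869.04*, annotated as a formamidase-like protein (chrI:5511137-5512385), had 568 and 509.7 RPKM in -N cells, against 0 and 0.057 RPKM in V cells. *SPAC869.03c*, annotated as a urea transporter (chrI:5512757-5514865), had 238 and 219 RPKM in -N cells, against 0.035 and 0.017 RPKM in V cells. Both were thus among the well-expressed genes of starved cells and nearly without reads in growing cells. In raw counts, *SPAC869.04* had 27270 and 25218 in -N cells against 0 and 2 in V cells, a ratio of summed CPM of 24410 with an exact 95% counting interval of 6757 to 201567. For *SPAC869.03c* the counts were 19320 and 18337 in -N cells against 2 and 1 in V cells, a ratio of 11675 with an interval of 3995 to 56617. These intervals cover counting error only. Both genes have no symbol in the annotation, and they and 2 other genes named here, *SPBC800.11* and *SPAC8E11.10*, were picked after their values were seen. The 371 bases between the 2 genes hold a GATA motif (GATAAG on either strand), the kind of sequence that GATA factors of nitrogen regulation read in yeasts. It is shown in capitals with the bases beside it, on the reference genome ASM294v3, plus strand, 5′ to 3′:
SPAC869.03c, chrI:5512611-5512656: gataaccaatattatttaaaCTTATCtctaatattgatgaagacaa

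Other nutrient-salvage genes followed. *SPBC800.11*, an inosine-uridine nucleoside hydrolase by annotation, had 212 and 246 RPKM in -N cells and 13.0 and 10.5 RPKM in V cells, a log2 difference of 4.29 ± 0.24 (SE). *xan1*, a xanthine dioxygenase of purine breakdown, had 422 and 433 RPKM in -N cells and 31.8 and 30.1 RPKM in V cells, a log2 difference of 3.79 ± 0.11 with adjusted p = 4.01e-21 in edgeR's test. *nrg1*, annotated as an amino acid permease, had 579 and 525 RPKM in -N cells against 36.5 and 28.2 RPKM in V cells (log2 difference 4.09). The 10 largest rises and falls of genes with a symbol were chosen among genes whose -N and V libraries did not overlap. The rises also included *zym1*, a metallothionein that binds zinc, with 570.4 and 601 RPKM in -N cells against 23.8 and 19.4 RPKM in V cells, *shk2*, a PAK-type kinase, with 206 and 181 RPKM in -N cells against 5.67 and 5.74 RPKM in V cells, and *bit2*, an HbrB-family protein of TOR signalling, with 33.4 and 35.04 RPKM in -N cells against 1.65 and 0.721 RPKM in V cells. Their log2 differences were 4.76, 5.08 and 4.85. For *bit2* the value was 5.56 without V replicate 1. *mug14*, annotated as an adducin of the actin cytoskeleton (log2 difference 5.01), and *hsp3105*, a glyoxalase III (3.93), completed the 10 largest rises of genes with a symbol together with the pheromone genes *mfm3*, *mfm1* and *sxa2*.

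**Figure D1:**
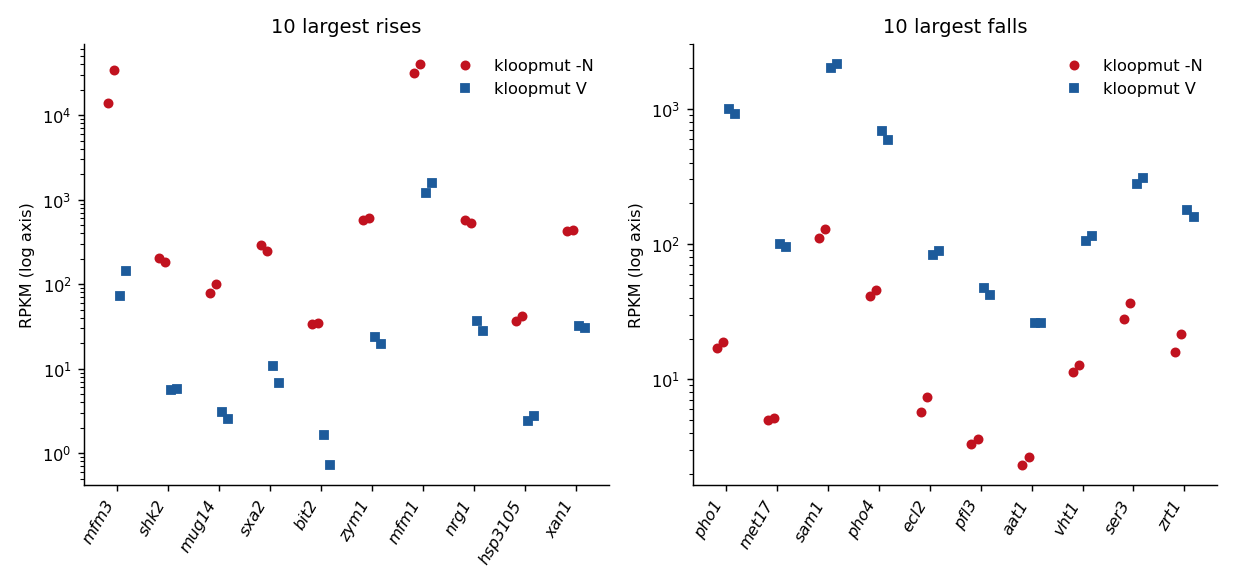
RPKM (log axis) in each of the 2 snR107kloopmut -N libraries (circles, left of each pair) and the 2 snR107kloopmut V libraries (squares) for the 10 protein-coding genes with a symbol that rose most (left panel) and the 10 that fell most (right panel). The genes were chosen to have no overlap between -N and V, so that gap is part of the choice. *mfm3* sits at 14071 and 33995 RPKM in -N cells and at 73.1 and 142 RPKM in V cells, and *pho1* at 16.9 and 18.9 RPKM in -N cells and at 999.6 and 917 RPKM in V cells.

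The largest fall of a protein-coding gene was that of *pho1*, the secreted acid phosphatase of phosphate starvation, which had 16.9 and 18.9 RPKM in -N cells and 999.6 and 917 RPKM in V cells, a 53.4-fold difference (log2 -5.74 ± 0.15, edgeR adjusted p = 4.01e-21). *pho4*, the acid phosphatase repressed by thiamine, had 41.5 and 45.6 RPKM in -N cells and 681 and 589.5 RPKM in V cells (log2 -3.87). *met17*, homocysteine synthase of sulfur metabolism, had 5.02 and 5.19 RPKM in -N cells and 99.4 and 95.5 RPKM in V cells, a log2 difference of -4.25 ± 0.19. *sam1*, which makes the methyl donor S-adenosylmethionine, had 110.1 and 129.9 RPKM in -N cells and 2010.5 and 2136 RPKM in V cells (log2 -4.11 ± 0.17). The others of the 10 largest falls were *ecl2*, a small protein linked to chronological lifespan (-3.70), *pfl3*, a DIPSY-family cell surface glycoprotein (-3.69), *aat1*, an amino acid permease (-3.38), *vht1*, the biotin transporter (-3.18), *ser3*, the first enzyme of serine synthesis (-3.18), and *zrt1*, the zinc importer (-3.18). *SPAC8E11.10*, a sorbose reductase by annotation, had 9.53 and 10.01 RPKM in -N cells and 138 and 131 RPKM in V cells (log2 -3.78).

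The genes of M-cell mating rose as a group: 9 of 10 were higher in -N cells and 0 lower, beside 34% and 30.9% of all protein-coding genes. Their median log2 difference was 2.68, beside 0.05 for all features. The precursor genes of M-factor reached some of the highest levels in the libraries. *mfm1* had 31282 and 40307 RPKM in -N cells against 1209 and 1558 RPKM in V cells (log2 difference 4.69 ± 0.35, adjusted p = 6.75e-12). *mfm3* had 14071 and 33995 RPKM in -N cells against 73.1 and 142 RPKM in V cells (7.81 ± 0.62), and this value was 7.01 without -N replicate 2. *mfm2* had 3142 and 5597 RPKM in -N cells against 903 and 1445 RPKM in V cells (1.90). The 10 genes of the list together took 3.90% and 5.13% of all counts in -N cells, against 0.1836% and 0.2298% in V cells. The genes that prepare and export M-factor or respond to its partner followed: *mam1*, the M-factor exporter (log2 difference 1.81), *mam4*, which methylates M-factor (1.62), *mam2*, the receptor for P-factor (3.03), *mam3*, a cell-surface agglutinin (3.36), and *sxa2*, the carboxypeptidase that degrades P-factor (4.94). Of the mating-type genes, *mat1-Mi* rose (2.33), while *mat1-Mc* had 4.05 and 3.79 RPKM in -N cells and 0.872 and 1.501 RPKM in V cells with adjusted p = 0.0840. The *mat1* genes have silent copies, and the 3 M-factor genes are close relatives, so reads may be split among copies.

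Of the 5 P-cell genes, 1 rose: *map1*, a MADS-box activator of P-specific genes, had 47.1 and 42.9 RPKM in -N cells and 11.6 RPKM in both V libraries (log2 difference 1.96 ± 0.14). The receptor for M-factor *map3* had 27.7 and 25.8 RPKM in -N cells and 24.5 and 20.6 RPKM in V cells, and the P-factor gene *map2* had 0.660 and 0.602 RPKM in -N cells and 2.02 and 0.956 RPKM in V cells. Neither passed the test. Of all protein-coding genes, 34% rose.

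Pheromone signalling itself was higher at most of its steps, with 11 of 15 genes up and 2 down, beside 34% and 30.9% of all protein-coding genes. The median log2 difference was 1.05. The pathway's MAP kinase *spk1* had 550.1 and 567 RPKM in -N cells and 123 and 124 RPKM in V cells (2.18), and the Gα subunit *gpa1* had 138 and 148 RPKM in -N cells against 64.5 and 64.8 RPKM in V cells (1.15). *ste6*, the activator of Ras1, had 151 and 138 RPKM in -N cells and 24.1 and 22.5 RPKM in V cells (2.64 ± 0.12). The claudin-like fusion proteins *dni2* (3.33) and *dni1* (2.21), the formin *fus1* (1.68) and the adaptor *ste4* (1.67) were also higher. The kinases *byr2*, the MAPKKK of the module (-0.56), and *shk1*, an essential PAK kinase (-0.45), fell, but *byr2* had adjusted p = 0.127 in edgeR's test without replicate 1 of both stages. *shk1* lost its call in 4 of the 6 fits with a library or replicate left out, without -N replicate 1, V replicate 2 or either replicate of both stages (adjusted p 0.0667 to 0.102). Under total-count scaling neither passed (-0.17 and -0.062).

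The transcription factor Ste11 reads the TR-box, TTCTTTGTT. The letters were searched on both strands in the 250 bases before the annotated start of each gene, where 82 of 5070 protein-coding genes (1.62%) held them. Among the M-cell genes 5 of 10 promoters held the motif, among the pheromone-signalling genes 6 of 15 and among the meiotic-switch genes 3 of 8. *ste11* is counted in both the pheromone-signalling and the meiotic-switch lists. Over all protein-coding genes, the median log2 starvation difference was 0.36 for the 82 with the motif and 0.06 for the rest. A match is a description of letters and was not tested as a binding site. The windows below, from genes whose values are given here, carry the motif or its reverse complement in capitals. They run 5′ to 3′ on the strand of the gene (minus for *mei2*, plus for the others) on ASM294v3:
mfm3, chrII:700180-700228: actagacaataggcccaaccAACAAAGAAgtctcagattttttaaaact
mfm1, chrI:4916916-4916964: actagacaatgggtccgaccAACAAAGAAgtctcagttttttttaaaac
ste6, chrIII:1765886-1765934: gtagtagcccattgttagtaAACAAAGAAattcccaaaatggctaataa
dni2, chrII:1184305-1184353: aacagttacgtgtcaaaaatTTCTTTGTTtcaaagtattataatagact
ste11, chrII:3983229-3983277: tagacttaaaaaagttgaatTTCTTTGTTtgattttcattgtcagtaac
mei2, chrI:4515135-4515183: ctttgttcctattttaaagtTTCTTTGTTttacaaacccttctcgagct

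The switch to meiosis moved in the same direction before Pat1 was inhibited, with 8 of 10 genes higher and 0 lower (median log2 difference 0.92). Of all features, 29% were higher and 27.1% lower. Of the 10 genes, 0 had under 10% of their length shared with other features, so the list could not be checked on low-overlap genes. *mei2*, the RNA-binding initiator of meiosis, had 255 and 310.1 RPKM in -N cells and 74.2 and 78.4 RPKM in V cells (1.89 ± 0.19, adjusted p = 2.52e-09). *ste11* had 70.8 and 109 RPKM in -N cells and 37.3 and 49.5 RPKM in V cells (1.05 ± 0.22), and *pat1* had 31.4 and 29.6 RPKM in -N cells and 15.2 and 16.0 RPKM in V cells (0.97 ± 0.20). Each of the 3 genes was higher in both -N libraries than in either V library, though the groups did not overlap for 77.8% of all features. *rep1*, an activator of premeiotic replication genes (1.16), and *cuf2*, a meiotic copper-type factor (0.69), rose too, whereas *mei3*, the natural inhibitor of Pat1, stayed at 0.463 and 0.592 RPKM in -N cells and 0.834 and 0.937 RPKM in V cells (adjusted p = 0.129). *mmi1*, the YTH-family protein that removes meiotic RNAs in growing cells, had 16.5 and 16.0 RPKM in -N cells and 19.7 and 16.3 RPKM in V cells and did not pass the test (-0.15 ± 0.16, adjusted p = 0.444, and 0.25 under total-count scaling). *sme2*, whose meiRNA binds Mei2 and Mmi1, had 1.99 and 1.84 RPKM in -N cells and 0.830 and 1.24 RPKM in V cells (0.88 ± 0.31, adjusted p = 0.0171). Its call was lost without -N replicate 1 (0.76), V replicate 1 (0.62) or replicate 1 of both stages (0.50). With both replicates kept, *sme2* did not pass with limma-voom (adjusted p = 0.203). It also did not pass in edgeR's fit of the 8 V and -N libraries (adjusted p = 0.167). *mamRNA*, host of snR107, had 100.1 and 91.9 RPKM in -N cells against 41.2 and 45.2 RPKM in V cells (1.15 ± 0.17).

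Transcripts that Mmi1 removes in growing cells were higher in starved cells, though at low levels: 16 of 19 rose, 1 fell and the median log2 difference was 1.38. In wt, 9 of the 19 rose and 2 fell (median 0.88), beside 29.1% and 26.5% of all features. The wt V libraries differed, the list taking 0.0185% and 0.0108% of their counts. *mei4*, the forkhead factor of middle meiosis, which is also on the meiotic-switch list, had 4.26 and 3.88 RPKM in -N cells and 0.644 and 1.04 RPKM in V cells (2.26 ± 0.20). *mcp7*, a recombination protein, had 16.7 and 15.3 RPKM in -N cells and 2.88 and 4.33 RPKM in V cells (2.15). *mug4* had 8.08 and 6.56 RPKM in -N cells and 1.86 and 1.64 RPKM in V cells (2.06). The dynactin subunit *jnm1* went the other way, with 2.57 and 2.49 RPKM in -N cells and 5.93 and 7.26 RPKM in V cells (-1.38). Genes of late meiosis and spores (median 0.13) did not move as 1 group. Of 15, 7 rose and 4 fell, beside 34% and 30.9% of all protein-coding genes. The meiotic septins *spn6* (1.51) and *spn7* (1.19) rose, and *mok12*, a spore-wall α-glucan synthase (-1.09), *spo4*, a meiosis II kinase (-0.997), and *spo3*, a forespore membrane protein (-0.91), fell. The spore gene *isp3* had 9.18 and 13.6 RPKM in -N cells and 3.95 and 5.57 RPKM in V cells (1.26 ± 0.41), but its adjusted p of 0.0116 became 0.0951 to 0.119 without -N replicate 2, V replicate 1 or either replicate of both stages.

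**Figure D2:**
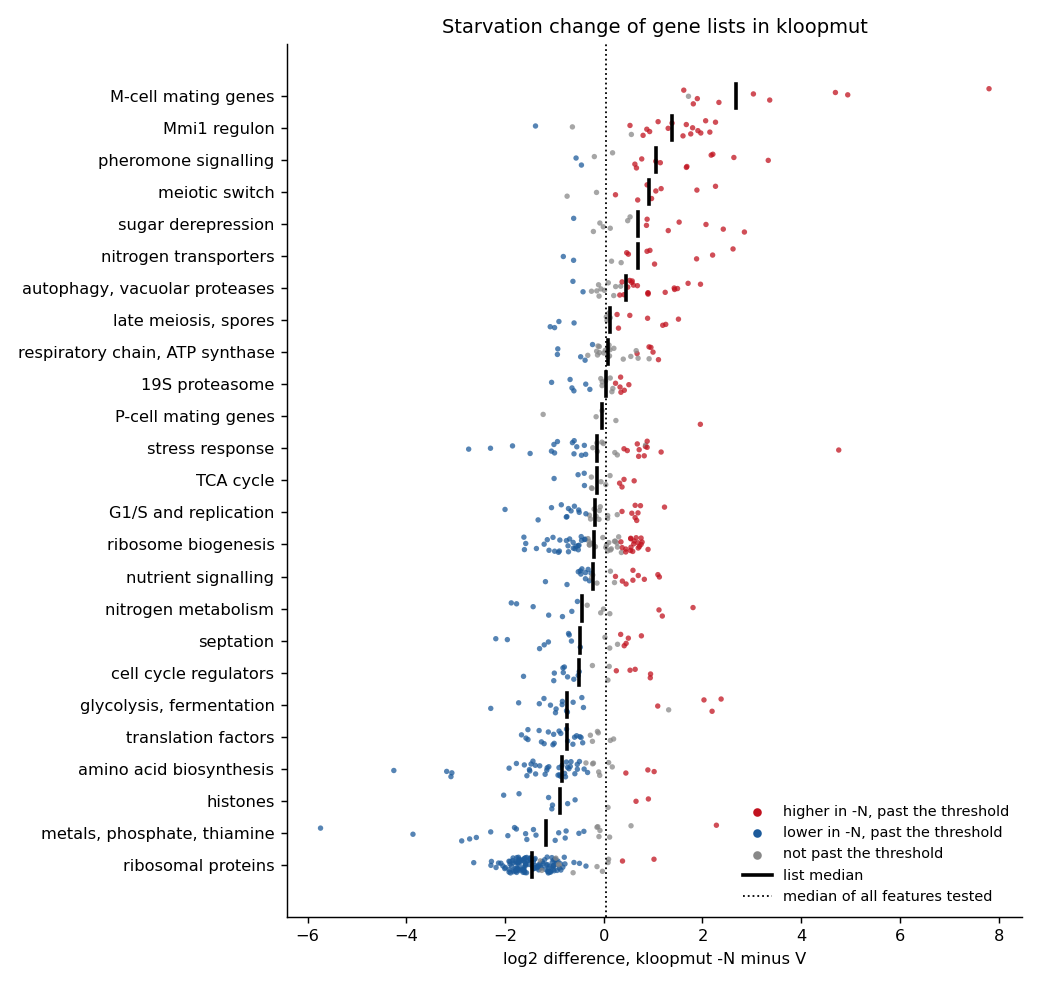
Log2 difference, -N minus V in snR107kloopmut, for every tested gene of the 25 gene lists (points, coloured by whether the gene was higher, lower or not past adjusted p 0.05 in edgeR's test), with each list's median as a black bar and the median of all features as a dotted line. The M-cell list lies furthest to the right with a median of 2.68, and the ribosomal proteins furthest to the left with -1.46.

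Uptake systems for nitrogen were higher in starved cells, with 8 of 12 transporters up and 2 down, beside 34% and 30.9% of all protein-coding genes. Their median log2 difference was 0.69. *isp5*, an amino acid permease, had 878 and 909 RPKM in -N cells and 142 and 149 RPKM in V cells (2.62 ± 0.20). *per1*, another amino acid permease, had 202 and 276 RPKM in -N cells and 48.9 and 54.8 RPKM in V cells (2.21 ± 0.16), and the oligopeptide transporter *isp4* had 792 and 809 RPKM in -N cells and 227 and 208 RPKM in V cells (1.88 ± 0.16). For these 3 the -N libraries lay above both V libraries, but the groups did not overlap for 77.8% of all features, called or not. The ammonium transporters split: *amt3* (0.94) and *amt1* (0.50) rose and *amt2* fell (-0.61), as did the cationic amino acid permease *cat1* (-0.82). Under total-count scaling *amt2* (-0.21) and *cat1* (-0.43) no longer passed. The GATA motif GATAAG was found before 8 of the 12 transporter genes, against 520 of 5070 protein-coding genes (10.3%), the median log2 difference being 0.12 for all genes with it and 0.05 for those without. The windows of *isp5* and *per1*, on the plus strand of ASM294v3, show its reverse complement in capitals:
isp5, chrI:5466609-5466654: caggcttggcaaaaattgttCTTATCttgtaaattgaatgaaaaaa
per1, chrI:3749319-3749364: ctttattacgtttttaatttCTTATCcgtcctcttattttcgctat

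Enzymes of nitrogen metabolism fell more often than they rose. Of 14 nitrogen-metabolism genes 3 rose and 7 fell (median -0.44), beside 34% and 30.9% of all protein-coding genes. *gdh1*, glutamate dehydrogenase, had 80.8 and 83.8 RPKM in -N cells and 314 and 289.8 RPKM in V cells (-1.87 ± 0.15), *asn1*, asparagine synthetase, had 88.1 and 84.5 RPKM in -N cells and 248 and 218 RPKM in V cells (-1.43 ± 0.11), and *put2*, of proline breakdown, was also lower (-1.77). The 3 that rose were *isp7*, an oxygenase-family regulator of permeases, with 339.8 and 379 RPKM in -N cells and 96.6 and 109 RPKM in V cells (1.81 ± 0.13), *uro1*, urate oxidase (1.19), and *ure2*, a subunit of urease (1.12). The GATA motif lay before 4 of the 14 genes (28.6%): *gdh1* and *asn1*, which fell, and *isp7* and *ure2*, which rose.

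Autophagy and vacuolar protease genes rose more often than they fell, at 18 of 30 against 2 (median 0.45). *atg43*, a receptor for mitophagy, had 61.2 and 71.0 RPKM in -N cells and 16.1 and 17.9 RPKM in V cells (1.96 ± 0.10). *atg1802*, which binds phosphoinositides on forming autophagosomes, had 46.6 and 43.8 RPKM in -N cells and 13.2 and 14.4 RPKM in V cells (1.71 ± 0.10), and the ubiquitin-like *atg12* was also higher (1.49). *isp6*, a vacuolar serine protease, had 103 and 101 RPKM in -N cells and 123 and 120.4 RPKM in V cells, which did not pass (-0.25 ± 0.14, adjusted p = 0.139, and 0.15 under total-count scaling). The 19S proteasome lid and base showed no common direction, with 6 of 19 genes higher, 6 lower and a median of 0.04. Of all protein-coding genes, 34% were higher and 30.9% lower. *rpn11*, the deubiquitinase of the lid, had 56.1 and 52.1 RPKM in -N cells and 121 and 104 RPKM in V cells (-1.06 ± 0.10).

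The regulators of nutrient signalling changed in both directions: 9 of 25 rose and 11 fell, beside 34% and 30.9% of all protein-coding genes. The list's median of -0.22 became 0.17 under total-count scaling. *fil1*, the GCN4-like activator of amino acid genes, had 236 and 434 RPKM in -N cells and 122 and 185 RPKM in V cells (1.13 ± 0.27), but its adjusted p was 0.101 without -N replicate 2. *cgs1*, the regulatory subunit of the cAMP-dependent kinase (1.10), and its catalytic subunit *pka1* (0.45) rose, whereas *gpa2*, the Gα subunit of the glucose pathway, had 11.2 and 11.9 RPKM in -N cells and 26.8 and 25.6 RPKM in V cells (-1.18 ± 0.14). *tor1* (-0.44) fell, while *tor2* had a difference of -0.22 with adjusted p = 0.0854. *gaf1*, a GATA factor, had 31.1 and 32.6 RPKM in -N cells and 36.8 and 39.4 RPKM in V cells. Its difference of -0.26 (adjusted p = 0.0435) lost its call in all 6 fits with a library or replicate left out (adjusted p 0.0587 to 0.209) and was 0.13 under total-count scaling.

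The translation machinery was lower in starved cells. Of 136 ribosomal protein genes 123 were lower, 2 higher and 11 not past the test, and the median log2 difference was -1.46. Of all protein-coding genes, 30.9% were lower and 34% higher. Their summed share of all counts was 4.602% and 5.942% in -N cells, against 10.37% and 11.97% in V cells. *rpl801* (uL2) had 219 and 329 RPKM in -N cells and 1601 and 1801 RPKM in V cells (-2.64 ± 0.20, adjusted p = 1.2e-11), and *rpl301* (uL3) had 91.1 and 108 RPKM in -N cells and 501 and 466 RPKM in V cells (-2.28 ± 0.20). The duplicated gene pair for uS11 diverged. *rps1402* had 261 and 415 RPKM in -N cells and 1489 and 1810.1 RPKM in V cells (-2.29 ± 0.21), whereas *rps1401* had 133 and 214 RPKM in -N cells and 75.1 and 96.3 RPKM in V cells (1.02 ± 0.22). Neither gene of the pair had overlapping groups, but the groups did not overlap for 77.8% of all features. Reads of near-identical copies can be assigned to either gene, and every base of *rps1401* is shared with another annotated feature. The other ribosomal gene that rose was *rps2202* (0.38), which lost its call in 5 of 6 fits with a library or replicate left out, all but that without V replicate 2 (adjusted p 0.0749 to 0.240).

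HomolD, CAGTCACA, is the promoter element typical of ribosomal protein genes in this yeast. It was found in the 250 bases before 87 of 136 ribosomal protein genes (64.0%), against 134 of 5070 protein-coding genes (2.64%). Genes with it had a median log2 difference of -1.34 (111 of 134 lower, beside 30.9% of all protein-coding genes), against 0.08 for those without it. Outside the ribosomal proteins, 47 genes held it and 30 of them were lower, with a median of -0.61. Among ribosomal protein genes the median was -1.56 for the 87 with HomolD and -1.26 for the 49 without, so the fall was not limited to genes with the letters. The windows of *rpl801* (minus strand of ASM294v3), *rpl301* and *rps1402* (plus strand) and of the strongly lowered *sam1* (minus strand) show the element in capitals:
rpl801, chrI:4251468-4251515: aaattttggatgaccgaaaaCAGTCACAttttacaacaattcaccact
rpl301, chrI:1756016-1756063: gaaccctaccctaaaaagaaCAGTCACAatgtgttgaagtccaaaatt
rps1402, chrII:1792258-1792305: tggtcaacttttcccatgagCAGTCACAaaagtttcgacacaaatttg
sam1, chrII:4163883-4163930: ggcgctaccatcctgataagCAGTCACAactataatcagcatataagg

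Translation factors followed the ribosomal proteins, with 21 of 27 lower, 0 higher and a median of -0.75. *tif1*, the helicase eIF4A, had 418 and 435 RPKM in -N cells and 1373 and 1168 RPKM in V cells (-1.58 ± 0.10). *eft202*, elongation factor 2, had 77.8 and 79.0 RPKM in -N cells and 274 and 224 RPKM in V cells (-1.67 ± 0.13). Ribosome biogenesis genes were mixed, with 19 of 66 higher and 27 lower, beside 34% and 30.9% of all protein-coding genes. The list's median of -0.19 became 0.21 under total-count scaling. Its largest falls included *fib1*, the 2'-O-methyltransferase fibrillarin of box C/D snoRNPs, with 119 and 136 RPKM in -N cells and 386 and 378 RPKM in V cells (-1.58 ± 0.14), and *gar1*, of box H/ACA snoRNPs, with 74.4 and 89.0 RPKM in -N cells and 253 and 245 RPKM in V cells (-1.61 ± 0.13). The list also holds *rpp101*, for the acidic ribosomal protein P1, which was lower (-1.62, and -2.22 without -N replicate 2). *imp4*, of the small-subunit processome, rose with 57.2 and 55.5 RPKM in -N cells and 33.5 and 32.3 RPKM in V cells (0.78 ± 0.11).

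**Figure D3:**
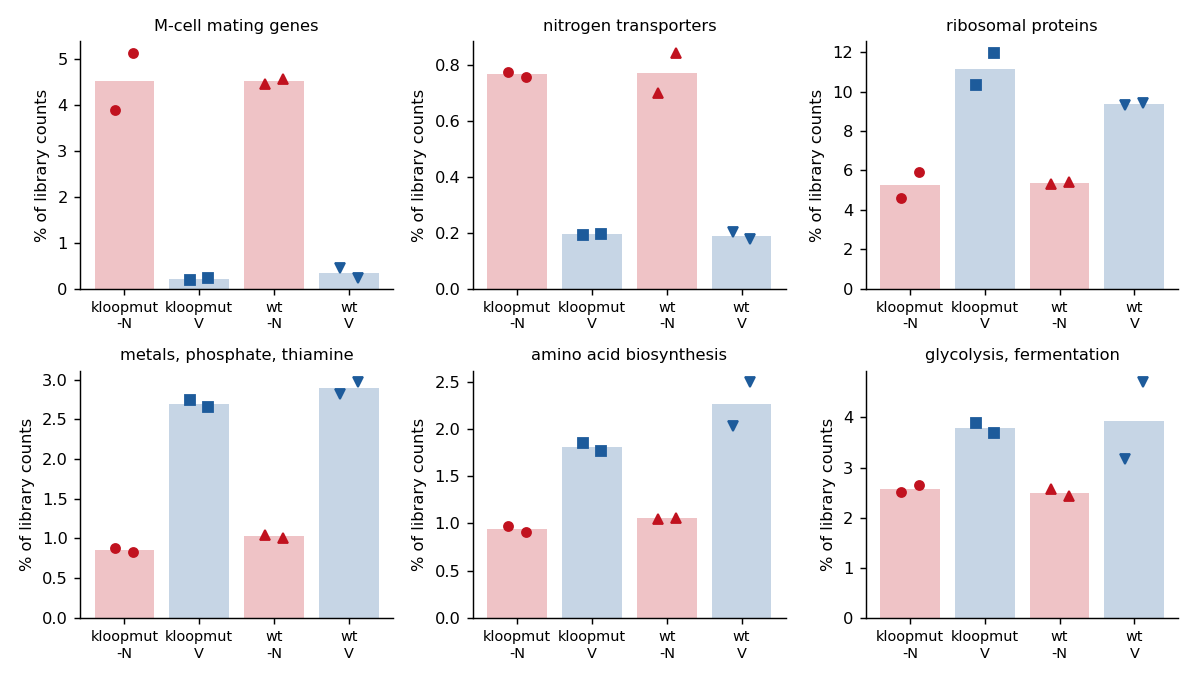
Percent of each library's total counts taken by selected gene lists in the 2 -N and 2 V libraries of snR107kloopmut and of wt (points, 1 per library, with bars for the mean of 2). In snR107kloopmut the M-cell genes took 3.90% and 5.13% in -N cells and 0.1836% and 0.2298% in V cells, and the ribosomal proteins 4.602% and 5.942% in -N cells and 10.37% and 11.97% in V cells.

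Genes of glycolysis and fermentation were mostly lower, and more of the genes repressed by glucose were higher than lower. Of 19 glycolysis and fermentation genes 14 fell and 4 rose (median -0.75). *pgk1*, phosphoglycerate kinase, had 334 and 424 RPKM in -N cells and 1761 and 1945 RPKM in V cells (-2.29 ± 0.24), and *pdc101*, the main pyruvate decarboxylase, had 796 and 760.2 RPKM in -N cells and 2121 and 1727 RPKM in V cells (-1.31 ± 0.13). Some enzymes had genes that moved in opposite directions. *gpd3*, a glyceraldehyde-3-phosphate dehydrogenase, had 561 and 695 RPKM in -N cells and 140.1 and 134 RPKM in V cells (2.19 ± 0.19), whereas *tdh1*, for the same enzyme, fell (-0.84). The enolase gene *eno102* rose (2.38) and *eno101* fell (-0.97), and the decarboxylase gene *pdc201* rose (2.03). Among 14 genes repressed by glucose, 7 rose and 1 fell (median 0.70). *agl1*, an α-glucosidase, had 26.2 and 26.7 RPKM in -N cells and 3.25 and 4.08 RPKM in V cells (2.85 ± 0.13), *gld1*, glycerol dehydrogenase, had 35.3 and 64.9 RPKM in -N cells and 9.44 and 9.26 RPKM in V cells (2.42 ± 0.35), and the gluconate transporter *ght3* was higher as well (2.07). Of all protein-coding genes, 34% were higher and 30.9% lower. The tricarboxylic acid cycle (4 of 14 higher, 4 lower) and the respiratory chain with ATP synthase (5 of 29 higher, 5 lower) had medians of -0.15 and 0.08. Within them *cox13*, a cytochrome oxidase subunit, rose (1.11) and *cyc1*, cytochrome c (-0.94), and *atp2*, the ATP synthase β subunit (-0.93), fell. *cox7* had a difference of 0.998 that was 0.39 (adjusted p = 0.453) without -N replicate 2. Its call was also lost without V replicate 1 or either replicate of both stages (adjusted p from 0.0729).

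Amino acid biosynthesis was lower in 37 of 47 genes and higher in 3, with a median of -0.85. Of all protein-coding genes, 30.9% were lower and 34% higher. *met26*, methionine synthase, had 192 and 207 RPKM in -N cells and 1672 and 1740.3 RPKM in V cells (-3.10 ± 0.13). The 3 that rose were *arg7*, argininosuccinate lyase (1.02), *tyr1*, prephenate dehydrogenase (0.89), and *arg12*, argininosuccinate synthase, whose difference of 0.45 lost its call in all 6 fits with a library or replicate left out (adjusted p 0.113 to 0.269). Genes of metal, phosphate and thiamine uptake and metabolism fell in 19 of 26 cases and rose in 1 (median -1.18). The thiamine genes *nmt1*, which makes the pyrimidine part of thiamine, with 1514 and 1690 RPKM in -N cells and 7782 and 7896 RPKM in V cells (-2.29), *thi2*, which makes the thiazole part (-2.58), and *bsu1*, a vitamin B6 transporter (-2.88), were all lower. So were the iron transporter *str1* (-2.72) and the ferric reductase *frp1* (-1.94). *pho84*, the phosphate importer, had 538 and 446 RPKM in -N cells and 591 and 447 RPKM in V cells and did not pass (adjusted p = 0.717), and *tgp1*, the glycerophosphodiester transporter, was the 1 member that rose, with 86.8 and 78.1 RPKM in -N cells and 18.9 and 15.1 RPKM in V cells (2.28 ± 0.18). *pho1* and *tgp1*, both phosphate-responsive in this yeast, thus moved in opposite directions, and both overlap non-coding features over much of their length (91.3% and 67.6%).

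Cell cycle genes were lower in 10 of 18 cases and higher in 5 (median -0.51), beside 30.9% and 34% of all protein-coding genes. *slp1*, the activator of the anaphase-promoting complex in mitosis, had 9.08 and 8.51 RPKM in -N cells and 28.1 and 26.2 RPKM in V cells (-1.63 ± 0.14), and the mitotic cyclin *cdc13* was lower (-1.01). Of the G1 factors, *rum1*, the inhibitor of cyclin-dependent kinase, had 54.3 and 64.6 RPKM in -N cells and 42.4 and 39.8 RPKM in V cells (0.53 ± 0.14, adjusted p = 0.00169, which became 0.148 without replicate 2 of both stages), the cyclin *puc1*, which acts towards G1, was higher (0.95), and *srw1*, the APC activator also called *ste9*, had 14.3 and 15.8 RPKM in -N cells and 14.9 and 13.0 RPKM in V cells (0.11 ± 0.13, adjusted p = 0.474). Of 30 genes of G1/S and replication, 8 rose and 12 fell, beside 34% and 30.9% of all protein-coding genes. The list's median was -0.18, or 0.22 under total-count scaling. The replication inhibitor *spd1* had 373 and 475 RPKM in -N cells and 166 and 195 RPKM in V cells (1.23 ± 0.16), whereas *mcm4* (-1.33) and *mcm2* (-1.06) of the replicative helicase and *ssb3* of the single-strand binding complex (-2.001) fell.

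Histone genes fell in 7 of 10 cases and rose in 2, beside 30.9% and 34% of all protein-coding genes. Their median was -0.89, and the copies of 1 histone did not move together. For histone H3, *hht1* had 151 and 189 RPKM in -N cells and 663 and 726 RPKM in V cells (-2.03 ± 0.14), while *hht2* had 1188 and 1894 RPKM in -N cells and 825 and 1135 RPKM in V cells (0.65 ± 0.22, adjusted p = 0.0116, which became 0.0504 to 0.392 without -N replicate 2, V replicate 1 or either replicate of both stages). For histone H4, *hhf2* had 778 and 709 RPKM in -N cells and 390.5 and 404 RPKM in V cells (0.90 ± 0.14), while *hhf1* (-1.05) and *hhf3* (-1.04) fell. The single H2B gene *htb1* had 246 and 282 RPKM in -N cells and 852 and 887 RPKM in V cells (-1.72 ± 0.16). These copies are near-identical in their coding parts, so their separate values are uncertain.

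Septation genes fell in 9 of 17 cases and rose in 5 (median -0.48), beside 30.9% lower and 34% higher of all protein-coding genes. *eng1*, the glucanase that dissolves the septum, had 6.25 and 6.54 RPKM in -N cells and 25.3 and 24.3 RPKM in V cells (-1.95 ± 0.20). *adg1*, a septum-associated cell surface protein, was lower (-2.19).

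The stress list had no common direction, with 11 of 34 genes higher and 15 lower, beside 34% and 30.9% of all protein-coding genes. The list's median of -0.14 became 0.26 under total-count scaling. Chaperones in the list moved both ways. *ssa2*, a cytosolic Hsp70, had 211 and 207 RPKM in -N cells and 1469 and 1317 RPKM in V cells (-2.74 ± 0.14), and *hsp90* had 296 and 261 RPKM in -N cells and 1105 and 899.8 RPKM in V cells (-1.85 ± 0.12). The disaggregase *hsp104* was also lower (-1.49), the small heat-shock genes *hsp9* (0.82) and *hsp20* (0.72) were higher, and *ssa1* (-0.14) and *hsp16* (-0.0074) did not pass. *ish1*, a nuclear envelope protein of stationary phase, rose with 63.8 and 72.7 RPKM in -N cells and 31.3 and 29.7 RPKM in V cells (1.16 ± 0.17). *act1*, actin, often used as a reference transcript, had 677 and 637 RPKM in -N cells and 1351 and 1098 RPKM in V cells (-0.90 ± 0.12, adjusted p = 6.64e-07).

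Non-coding features that share no base with another annotation were seldom called lower: 105 of 391 such lncRNAs were higher and 23 lower, with a median log2 difference of 0.64, beside 29% higher and 27.1% lower of all features. All 6747 lncRNAs, most of which overlap other features, split into 1693 higher and 1667 lower. *SPNCRNA.4490* (chrI:5514940-5515352), which lies beside the urea transporter gene, had 135 and 196 counts in -N cells and 0 in both V libraries, at least 50.2-fold higher against a floor of 3 counts per library. *SPNCRNA.3262* had 56 and 83 counts in -N cells and 0 in both V libraries, at least 21.1-fold higher. *SPNCRNA.6685* had 56.2 and 74.0 RPKM in -N cells and 0.727 and 2.12 RPKM in V cells (log2 difference 5.50 ± 0.59, and 6.46 without V replicate 2). Among stand-alone features of at least 5 RPKM in -N or V, the largest falls were *SPNCRNA.5104*, with 90.9 and 62.9 RPKM in -N cells and 367 and 279.9 RPKM in V cells (-2.07 ± 0.30), *SPNCRNA.3278* (-1.85, and -2.62 without replicate 1 of both stages) and *SPNCRNA.4111* (-1.78). Larger rises were found among lncRNAs that share bases with other features. *SPNCRNA.4487* had 9364 and 8785 counts in -N cells and 0 in both V libraries (at least 2793-fold higher). *SPNCRNA.4488* had 4226 and 3892 counts in -N cells and 0 in both V libraries (at least 1250-fold higher). Of 66 snoRNAs, 31 were higher and 2 lower in these poly(A)+ libraries (median 1.09), where mature snoRNAs without a tail are not captured and reads can come from host transcripts. No strand setting of the counting is given in the sources used here, so the values of features that overlap others, among them *mfm3* (100% of its length), *shk2* (98.9%) and *rpl801* (100%), cannot be separated from those of their antisense or overlapping partners.

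The same step in wt cells changed 55.6% of features, and most snR107kloopmut calls were shared with it. Of the 6748 features called in snR107kloopmut, 5103 (75.6%) were called in the same direction in wt and 15 in the opposite direction, which is 76.4% of the wt calls. Across the 12019 features the log2 differences of the strains had a Pearson r of 0.770 and a Spearman rho of 0.816, a description over features, which are not independent, of comparisons with no library in common. The strongest rises were also found in wt, at other levels. *SPAC869.04* had 911 and 942 RPKM in wt -N cells and 0.044 and 0.065 RPKM in wt V cells, and *SPAC869.03c* had 457 and 487 RPKM in wt -N cells against 0 and 0.116 RPKM in wt V cells, so that the -N levels of both were higher in wt than in snR107kloopmut. The rise of *xan1* differed between the strains by the test of the difference described next, with a log2 difference of 3.79 in snR107kloopmut and 2.96 in wt (adjusted p of their difference 0.00207 in edgeR's test). The gene with the largest fall in snR107kloopmut, *pho1*, had a log2 difference of -6.55 in wt.

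**Figure D4:**
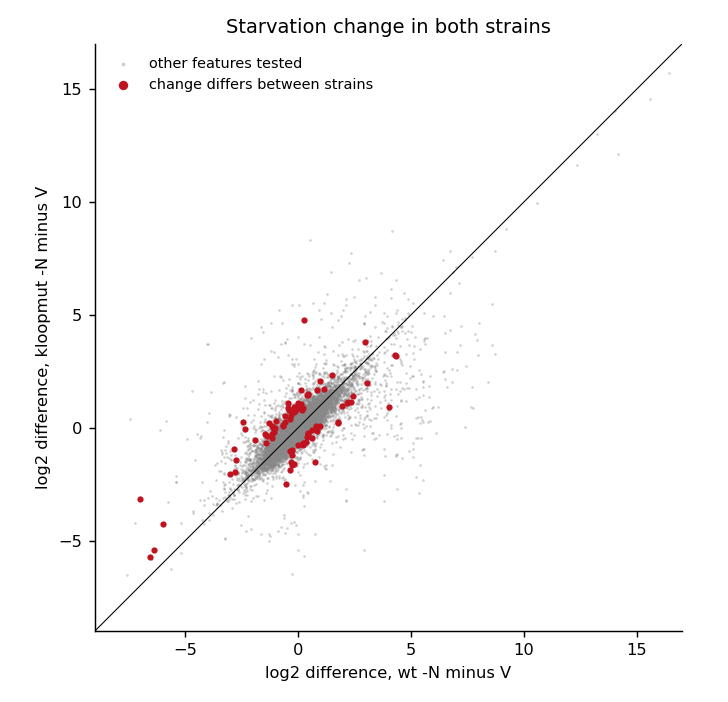
Log2 difference, -N minus V, of each tested feature in snR107kloopmut (y axis) against the same difference in wt (x axis), with the 81 features whose starvation change differed between strains in colour. Most points lie near the diagonal line of equal change (Pearson r = 0.770, Spearman rho = 0.816 over 12019 features).

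A test of the difference itself, the interaction of strain and stage, was passed by 81 features (0.674%), of which 49 had the higher change in snR107kloopmut and 32 the lower, and 46 were protein-coding. In the Mmi1 regulon 2 of 19 genes passed it, and the list's median difference between the strains was 0.57. Among the 10 genes with the largest differences, 3 kept their call in all 12 fits with a library or replicate left out: *met17*, *ecl1* and *SPAC513.07*. *met17* fell in both strains but less in the mutant, with a log2 difference of -4.25 in snR107kloopmut and -6.00 in wt, where it had 3.37 and 5.24 RPKM in -N cells and 253 and 296 RPKM in V cells. *ecl1*, a small protein linked to chronological lifespan, had 34.8 and 39.1 RPKM in -N cells and 29.3 and 35.4 RPKM in V cells of the mutant (0.19), against a log2 difference of -1.29 in wt. *SPAC513.07*, a reductase-family protein by annotation, had 41.7 and 40.7 RPKM in -N cells and 132 and 124 RPKM in V cells of the mutant (-1.64), against a difference of -0.29 in wt. The difference between strains lost its call in 10 of the 12 fits for the polyubiquitin gene *ubi4*, which rose by 1.13 in the mutant and 2.34 in wt, and in 6 for the iron permease *fip1* (-1.42 and -2.74). For 64 of the 81 features the gap between the strains was larger in V cells than in -N cells. Without wt V replicate 2 the test called 2142 features. In a fit of the 8 V and -N libraries alone, 0 features passed in edgeR's test (886 had an unadjusted p under 0.05), whereas the 81 calls use the spread estimated from all 40 libraries.

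The values after Pat1 inhibition, when ammonium and leucine were added, place the starvation changes in the later course. Relative to V in snR107kloopmut, on the log2(RPKM + 1) scale, the median of the nitrogen transporters was 0.65 at -N, -1.08 at 1 h and -1.14 at 2 h, and *isp5* had a mean of 145 RPKM at V, 893 RPKM at -N and 6.94 RPKM at 1 h. *SPAC869.04* averaged 0.029 RPKM at V, 539 RPKM at -N and 1.89 RPKM at 1 h. The ribosomal proteins had medians of -1.50 at -N, -0.02 at 1 h and 0.04 at 2 h, then -1.74 at 6 h. These lists thus left their starved levels within 1 h. The M-cell genes had medians of 2.68 at -N, 3.12 at 1 h, 0.22 at 4 h and -1.78 at 8 h. Their mean share of all counts was 4.52% in -N cells, then 2.33% (1 h) and 1.75% (2 h). The meiotic-switch genes had medians of 0.74 at -N and 1.60 at 2 h. *pho1* averaged 958 RPKM at V, 17.9 RPKM at -N and 2130 RPKM at 1 h, and *met17* 97.4, 5.10 and 93.4 RPKM at the same stages. *zym1* had a mean of 21.6 RPKM at V, 586 RPKM at -N, 9.22 RPKM at 1 h and 19537 RPKM at 7 h. No test was run on these courses.

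**Figure D5:**
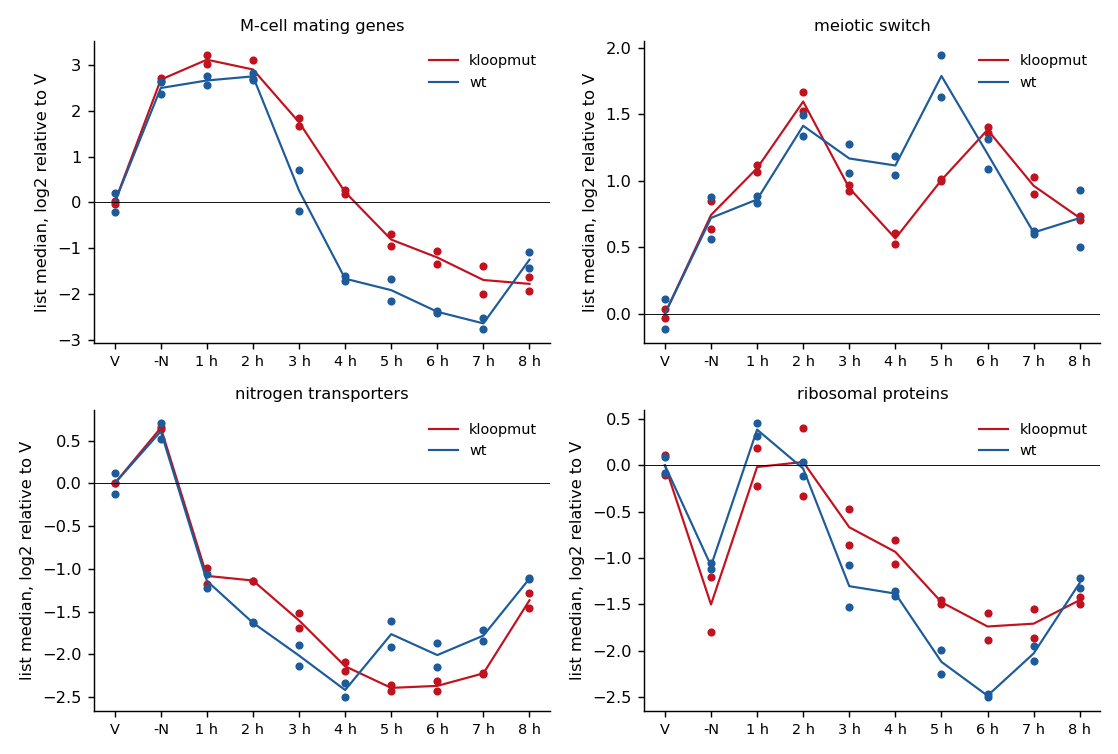
Median level relative to V, on the log2(RPKM + 1) scale, of 4 gene lists at V, -N and 1 to 8 h after 3-MB-PP1 was added together with ammonium and leucine, in snR107kloopmut (red) and wt (blue), with a point for each library and lines through the means of 2. In snR107kloopmut the nitrogen transporters drop to -1.08 at 1 h after standing at 0.65 at -N, and the ribosomal proteins stand at -1.50 at -N and -0.02 at 1 h.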

How the data were processed

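Poly(A)+ RNA in 40 libraries (20 groups of 2) was sequenced as paired ends. Per the labels and the study's methods, the authors trimmed reads with fastp 0.23.1, aligned them with STAR 2.6.1d and deposited 1 table of counts per annotated feature from featureCounts (Subread 2.0.6), with bcl2fastq 2.20 before; the counts are raw. The annotation release, the strand setting and the treatment of multi-mapped reads are not given in the sources used here. Of 12684 feature IDs, 12594 matched RefSeq ASM294v3 in start and end, so that promoter windows were read from that build.

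Counts of all 40 libraries were fitted in 1 model with a mean per group, with edgeR 4.0.16 (filterByExpr, TMM, quasi-likelihood F test, 2-sided, Benjamini-Hochberg over 12019 features; 665 low features removed) under R 4.3.3. The contrasts were -N minus V in snR107kloopmut, the same in wt, and their difference. RPKM was computed from the counts with TMM-scaled totals. Values after ± are SE. On simulated data for the -N against V contrast, changes of 1.5, 2, 3 and 4-fold were recovered in 42, 76, 98 and 96% of genes, with 5 false calls among 11974 features. Only 50 well-counted features of each size were changed there, as many up as down, with the model's own dispersion. In the real data 56.1% of features were called, so these rates do not cover changes that wide or errors of scaling. Tables and figures were made with Python 3.11.15, pandas 2.3.3, numpy 2.4.6 and matplotlib 3.10.9.

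Named genes were the 10 largest rises and falls among protein-coding genes with a symbol, with groups that did not overlap and a mean of at least 10 RPKM; up to 3 rises and 3 falls of each of 25 gene lists; 11 fixed genes; the 5 largest strain differences each way; and 3 stand-alone lncRNAs each way (the last 2 sets at 5 RPKM or more). Other list members are named to show a pathway's steps. Some genes that the rule names are not reported here. The comparison, the members and the lists were chosen with earlier results of these data known. Of 673 list entries, 661 were found. The lists cover nitrogen transporters and metabolism, autophagy, M-cell and P-cell mating, pheromone signalling, the meiotic switch, the Mmi1 regulon, late meiosis, nutrient signalling, ribosome biogenesis, ribosomal proteins, translation factors, glycolysis, glucose-repressed genes, the tricarboxylic acid cycle, respiration, amino acids, stress, G1/S, cell cycle, histones, septation, metals with phosphate and thiamine, and the 19S proteasome. Alternatives were another scaling (RLE, total counts), no low-count filter, DESeq2 1.42.0, limma-voom (limma 3.58.1), smaller fits, a replicate block, feature subsets and leaving out libraries. P-values rest on a spread between replicates estimated over all 20 groups of the 40 libraries, not on the compared cultures alone.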

Additional observations from a re-analysis of the deposited data

Results flagged for a closer look

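The starvation change differed between snR107kloopmut and wt in 81 features by a test of the difference itself (edgeR's quasi-likelihood test of the interaction). The 5 protein-coding genes with the largest positive differences, where the change was higher in snR107kloopmut, were *SPBC460.05*, with no annotated product (3.85), *met17* (1.74), *ecl1* (1.48), *fip1* (1.32) and *SPCC622.15c*, an uncharacterized protein (1.24). The 5 with the largest negative differences were *SPAC27D7.09c*, a But2-family protein (-1.96), *SPBC215.11c*, an aldo/keto reductase (-1.52), *SPAC513.07*, a reductase-family protein (-1.35), *ubi4* (-1.20) and *SPAC1039.01*, an amino acid permease (-1.08).

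*SPAC513.07* had the smallest adjusted p of the 10 (3.91e-07). It had 41.7 and 40.7 RPKM in snR107kloopmut -N cells and 132 and 124 RPKM in snR107kloopmut V cells, against 75.1 and 67.2 RPKM in wt -N cells and 84.6 and 89.4 RPKM in wt V cells. *SPBC460.05*, in the telomeric contig of chromosome II, had 0.229 and 0.285 RPKM in snR107kloopmut -N cells and 2.46 and 2.17 RPKM in snR107kloopmut V cells, against 0.298 and 0.411 RPKM in wt -N cells and 54.7 and 36.7 RPKM in wt V cells, so that the strains were apart in V cells. The wt V libraries also differed from each other for *ubi4* (109 and 264 RPKM), *fip1* (265 and 146 RPKM) and *SPAC27D7.09c* (3.13 and 7.89 RPKM). Without wt V replicate 2 the strain difference was -2.76 for *SPAC27D7.09c* and -1.97 for *ubi4*, and without wt V replicate 1 it was -0.702 for *ubi4* and 0.825 for *fip1*. *SPAC27D7.09c*, *SPBC460.05* and *ubi4* each lost their call in 10 of the 12 fits with a library or replicate left out, *SPCC622.15c* in 9, *fip1* in 6, *SPBC215.11c* in 5 and *SPAC1039.01* in 4.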

How the results depend on the processing

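The count of 6748 starvation calls lay between 4546 and 5717 in the 6 fits with a library or replicate left out, in which 1 sample stood for an arm and was assumed to vary like the other groups. It was 2822 with a 2-fold limit added, 3409 among protein-coding features only and 681 among features with under 10% overlap. In a fit of the 8 V and -N libraries it was 5365, and in a fit of the 4 snR107kloopmut libraries 6546. The 81 strain differences became 43 with a 2-fold limit, 463 with DESeq2, 412 with limma-voom, 0 in the fit of the 8 V and -N libraries, 155 among protein-coding features only and 6 among features with under 10% overlap, and 9 to 2142 with a library or replicate left out. They were 2142 without wt V replicate 2, 1712 without wt replicate 2 and 23 without wt replicate 1 of both stages, 15 without snR107kloopmut replicate 2 of both stages, and 12 to 55 without 1 -N library in wt. The cause was not tested.

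No label says that a replicate number marks 1 culture followed from V to -N, and deviations of the same-numbered V and -N libraries correlated at 0.30 in snR107kloopmut and 0.024 in wt. With a replicate block, 7010 starvation calls were made (7846 in the block fit of the 4 snR107kloopmut libraries, chosen after seeing the data) and 244 strain differences.

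Directions turned under total-count scaling for *mmi1* (0.25), *gaf1* (0.13) and *isp6* (0.15) and for the medians of nutrient signalling (0.17), ribosome biogenesis (0.21), the tricarboxylic acid cycle (0.25), stress (0.26) and G1/S (0.22). With under 10% overlap the medians turned for nutrient signalling (0.41, 7 genes), the tricarboxylic acid cycle (0.041, 4 genes), stress (0.28, 8 genes), G1/S (0.073, 10 genes) and histones (0.039, 3 genes). The meiotic-switch list had 0 genes with under 10% overlap, so its median could not be checked in this way. *srw1* was -0.068 without replicate 2 of both stages, and *SPCC622.15c* was -0.035 without -N replicate 2, -0.034 without replicate 2 of both stages and up to 0.088 without another. Of 165 named genes and features, all kept their direction and call under DESeq2, RLE size factors, no low-count filter and the block. Fewer did so under limma-voom (163), in the 8-library fit (155) and under total-count scaling (148). *sme2* and *arg12* lost their call under limma-voom. In the 8-library fit both lost it again, as did *shk1*, *isp3*, *hht2*, *rps2202* and *gaf1* among others. Under total-count scaling 11 lost their call, 3 gained one and 3 turned direction. Depth was enough for genes with more than a few counts, but genes at 0 or 1 to 3 counts in V have bounds or counting intervals in place of fitted changes.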
